A study of Mus musculus with 4 samples.

Results

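Insulin-positive islet cells sorted for low or high Glut2 from mice made diabetic with streptozotocin (STZ) were compared, library against library, over 9292 of the 39170 genes in the deposited table. A gene entered when its estimate had the status OK in both STZ libraries, its level reached 5 FPKM (fragments scaled to transcript length and to library size) in 1 of them and its locus spanned 300 bp or more. Predicted genes and small RNAs were left out. Of the genes compared, 9148 are annotated as protein-coding in GENCODE M21.

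Islets were taken from male MIP-GFP mice on C57BL/6, aged 6 to 8 weeks, whose transgene drives green fluorescent protein from the mouse insulin 1 promoter in every group. The Glut2H STZ and Glut2L STZ groups received 200 mg/kg of STZ in citrate buffer intraperitoneally, and diabetes was present 4 days later. The Glut2H control and Glut2L control groups received vehicle and are used here beside the STZ pair. Each of the 4 groups is 1 library. The design text gives 3 mice per treatment, while the sources used here do not say how their RNA was combined. With 1 library a side there is no replicate check and no test, so each difference is a difference between these libraries. The number of reads is unknown.

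Glut2 is the low-affinity glucose carrier of rodent beta cells and the route by which STZ enters them, so cells with little Glut2 are the ones the drug is least able to reach. Beta cells make insulin in bulk: the prohormone is threaded into the endoplasmic reticulum (ER), folded, passed through the Golgi and stored in acidic granules moved on microtubules. Islets also house macrophages, which take up debris, lipid and iron and digest them in lysosomes.

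The glucose carrier's own transcript ran opposite to the gate names. Slc2a2 (ENSMUSG00000027690, chromosome 3, 28697903 to 28731359 in GRCm38, as for all positions here) was at 10.8 FPKM under the Glut2H label and 33.7 under the Glut2L label, a log2 difference of 1.55. In controls it was at 8.74 and 41. Which library held the cells with less Glut2 protein cannot be told from these files, so each difference below is one between labels. Ins1 and Ins2 differed the same way, by 1.29 and 1.74. All log2 values here compare FPKM plus 1 and are the library labelled Glut2L minus the library labelled Glut2H. Paired FPKM give Glut2H first and Glut2L second, and both are from STZ mice unless controls are named.

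Marker lists describe what each library held. The 12 beta cell markers summed to 67309 FPKM under the Glut2H label and 209600.0 under the Glut2L label, of which Ins2 gave 52596 and 175841. At least 2-fold higher were 10 of the 12 (median 1.41), against 19.6% of all genes compared, and 0 were lower. For 18 leukocyte markers the sums were 3564 and 144, and all 15 compared were at least 2-fold lower under the Glut2L label, where Cd3e was among those listed at 0. Endothelial markers summed to 254 and 15.3 (8 of 8 lower, Tie1 and Cldn5 listed at 0) and stromal markers to 1884 and 99.3 (12 of 12 lower). Acinar markers summed to 4661 and 390.4 (14 of 14 lower, Amy2a5 listed at 0). Among all genes compared 16.0% were at least 2-fold lower. Of the lower markers, 8 leukocyte, 8 endothelial, 10 stromal and 3 acinar genes were below 5 FPKM under the Glut2L label. These entered through their high side alone. In bulk RNA, fewer cells of a type and less RNA per cell cannot be told apart. The part these marker differences play in the results that follow was not tested.

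The STZ pair differed with a heavier tail on the low side. Higher by 2-fold or more under the Glut2L label were 1819 genes (19.6% of those compared) and lower by that much 1491 (16.0%), around a median log2 of 0.23. At 4-fold the balance turned, with 321 genes higher (3.45%) and 836 lower (9.00%), and at 16-fold 9 were higher and 148 lower. The 25th and 75th percentiles were -0.50 and 0.84. The split of the calls moves with the scale. Of the genes at least 2-fold apart 55.0% were higher on the deposited scale, 87.1% after equalising total FPKM across all rows, 32.5% after equalising it across the genes compared and 41.2% after centring the all-gene median on 0, and the median log2 was then 1.28, -0.14 and 0. The rows left out held 86.8% of the summed FPKM under the Glut2H label and 61.5% under the Glut2L label. Among the 1819, 785 were below 5 FPKM under the Glut2H label, and among the 1491, 961 were below 5 FPKM in the other, so these entered through their high side alone. Genes just above the minimum were Cnnm2 (4.18 and 5.0 FPKM) and Skint8 (2.33 and 5.0), and just below it were Zfp563 (3.35 and 4.997) and Mkln1os (2.21 and 4.995).

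Ins2, Gpx3, Ins1, Gpx4, Iapp, Gcg, Malat1 and Sepp1 were among the 10 highest in both libraries. The other two places went to Apoe, the lipid carrier secreted by macrophages, and Txnrd3 under the Glut2H label, and to Ppy and Chga, a pancreatic polypeptide and a granule protein, under the Glut2L label. Apoe stood at 7834 and 237 FPKM and Chga at 1146 and 4494. Gpx4, which repairs oxidised membrane lipids, was at 35496 and 18116 and Malat1, a nuclear noncoding RNA, at 11820.0 and 9559, neither differing 2-fold on the log2 scale used. Txnrd3 was at 3669 and 612 after STZ but at 201 and 2771 in controls. How well such rows were quantified is not known. Differences of 2-fold or more were found at all levels: between 5 and 10 FPKM in the higher library 18.5% of 2503 genes were higher and 15.3% lower, and between 50 and 200 FPKM 23.0% of 1355 were higher and 17.0% lower.

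**Figure D1:**
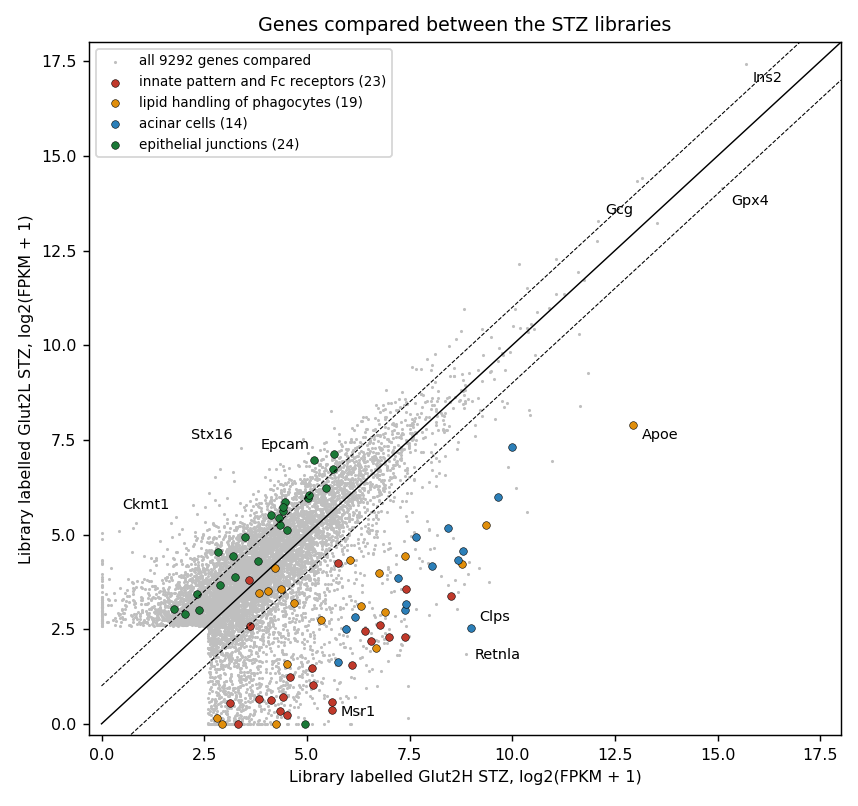
Level of each of the 9292 genes compared in Glut2H STZ (x axis) and Glut2L STZ (y axis), as log2 of FPKM plus 1, with 1 point per gene. The solid line marks equal levels and the dashed lines 2-fold differences. Most innate receptor and phagocyte lipid genes and all acinar genes lie below the lower dashed line, with Apoe at 7834 and 237 FPKM, and most epithelial junction genes lie along or above the upper line.

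Each of 4 groups along the secretory route held genes at least 2-fold higher under the Glut2L label and none at least 2-fold lower, in the control pair as well. Of 23 genes of the translocon and signal peptidase, which move new chains into the ER and trim them, 10 were at least 2-fold higher and 0 lower (median 0.84, against 19.6% and a median of 0.23 for all genes). Srpr, the docking receptor for the signal recognition particle, stood at 43.5 and 135 FPKM and Tram1, a partner of the channel, at 38.9 and 114. The channel subunit Sec61a1 was at 72.5 and 184 and Spcs1, a signal peptidase subunit, at 54.2 and 146. Srp54a, a gene for the signal recognition particle, was listed at 0 under the Glut2L label. An exact 0 in this table is not read as absence.

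Among 27 N-glycosylation genes, 7 were at least 2-fold higher (25.9%, near the 19.6% of all genes) and 0 lower (median 0.65). Of these 7, 4 encode subunits of the oligosaccharyltransferase that attaches the glycan: Rpn2 at 85.7 and 273 FPKM, Ddost at 33 and 80.3, Dad1 at 81.7 and 189 and Tusc3 at 11.8 and 35.1. Dpm3, which anchors the enzyme that makes dolichol-linked mannose, was at 66.8 and 176.

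Coat proteins and cargo receptors of ER-to-Golgi traffic gave 8 of 35 at least 2-fold higher and 0 lower (median 0.62). Surf4, a receptor that sorts soluble secretory cargo, had 67.9 and 225 FPKM, and Tmed3, a p24 cargo receptor, 40.1 and 126. Kdelr2, which returns escaped ER chaperones, had 22.5 and 72.8. Sec16a, which organises ER exit sites, had 22.2 and 69.1, and the coat subunit Sec23b 49.3 and 127. The share of higher genes in this group, 8 of 35, is close to the 19.6% background, while its median lies above that of all genes.

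ER-associated degradation, which pulls misfolded proteins back for destruction, had 10 of 20 genes at least 2-fold higher and 0 lower (median 1.0). Herpud1, a scaffold of the degradation complex, stood at 105 and 323 FPKM, the mannosidase gene Man1b1 at 15.4 and 50.2 and the conjugating enzyme gene Ube2g2 at 41.3 and 126. Derl3, a derlin of secretory tissues, was at 1.59 and 9.11. In control mice these genes were at 93.1 and 411, 14.7 and 55.3, 53.9 and 103 and 3.77 and 30.2, all higher under the Glut2L label as well, Ube2g2 by less than 2-fold. Taking the 4 groups in the order given, the control pair had 13 of 23, 11 of 27, 15 of 35 and 10 of 20 genes at least 2-fold higher, against 17.4% of all genes. The control medians were 1.09, 0.87, 0.90 and 1.02. After equalising totals across the genes compared, the STZ medians became 0.44, 0.27, 0.22 and 0.60.

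The ER stress element, searched as CCAAT and CCACG with any 9 bases between them on either strand, is the site through which ATF6 raises ER genes. Promoters were taken from RefSeq (GRCm38.p6, 250 bases before to 50 after a start site). Of 20 compared genes for ER-associated degradation, 16 had a promoter in the table, and 2 of these 16 held the letters, as did 1 of 23 for N-glycosylation, 0 of 16 for the translocon and 0 of 30 for coats. Over all 27025 genes with a promoter, 37 held them (0.137%). The 3 matches are shown on the strand of the gene with the element in capitals and up to 30 bases on each side, because they are the members of these groups in which the sequence was found:
Derl3, chr10:75893212-75893290, plus strand: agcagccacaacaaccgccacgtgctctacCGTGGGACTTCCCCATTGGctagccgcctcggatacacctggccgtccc
Syvn1, chr19:6046502-6046575, plus strand: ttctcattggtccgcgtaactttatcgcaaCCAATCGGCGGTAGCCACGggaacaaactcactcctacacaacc
Alg12, chr15:88819490-88819568, minus strand: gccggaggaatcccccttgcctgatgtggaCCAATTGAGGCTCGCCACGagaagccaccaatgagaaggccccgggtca
The element of Derl3 is on the opposite strand. Derl3 was at least 2-fold higher under the Glut2L label, whereas Syvn1, the ubiquitin ligase of the pathway, was at 32.2 and 46.8 FPKM and Alg12, a mannosyltransferase gene, at 2.39 and 5.37, both under 2-fold. A match in letters is a description and shows no binding.

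The vacuolar proton pump acidifies granules and lysosomes alike. Of its 20 genes 4 were at least 2-fold higher (20%, near the 19.6% of all genes) and 2 lower (10%, below the 16.0% of all genes), and the median of 0.41 became 0.01 after equalising totals across the genes compared. The 2 lower genes encode subunits known from osteoclasts and macrophages: Tcirg1 stood at 129 and 15.3 FPKM and Atp6v0d2 at 20.4 and 1.03. Their general counterparts did not differ 2-fold, with Atp6v0a1 at 29.4 and 58.1 and Atp6v0d1 at 44.3 and 40.4. On the high side were Atp6v0c at 5.54 and 37.7, Atp6v1e1 at 106 and 243 and Atp6v0e2 at 6.56 and 26.6.

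Rab GTPases, the address labels of vesicles, did not stand out by count. Over 28 genes 4 were at least 2-fold higher (14.3%) and 3 lower (10.7%), both shares below those of all genes, and the median of 0.13 became -0.11 once the all-gene median was centred on 0 and -0.25 after equalising totals across the genes compared. Of the 4 higher genes, 3 belong to regulated secretion: Rab27a, which tethers insulin granules, at 20.6 and 45.8 FPKM, Rab3d at 10.3 and 27.5 and Rab3b at 1.52 and 6.87. Lower were Rab31 at 9.98 and 1.27, Rab8b at 19 and 4.21 and Rab20, a phagosome Rab, at 8.83 and 1.84. All 3 lower genes, and Rab3b among the higher, were below 5 FPKM in the other library and entered through their high side alone. Housekeeping members differed little, with Rab5a at 39.4 and 41.2 and Rab7 at 64.3 and 57.6.

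Islet endocrine cells share much of their gene expression with neurons, and several lists that include neuronal genes had medians above the 0.23 of all genes. Over genes of at least 20 FPKM the medians for microtubule transport, splicing and neurotransmitter genes were 0.61, 0.16 and 0.10, beside 0.28 for all genes. In microtubule transport 10 of 27 genes were at least 2-fold higher (37.0%, against 19.6% of all genes) and 3 lower (11.1%, against 16.0%), with a median of 0.70. Of the 10 higher genes, 4 were below 5 FPKM under the Glut2H label and entered through the other side alone. In controls 4 of the 10 were at least 2-fold higher and all 3 lower genes at least 2-fold lower. Kif1a, the kinesin that carries dense-core vesicles, stood at 14.2 and 42.3 FPKM, Map1b at 18.3 and 41.3 and the tau gene Mapt at 5.63 and 16.3. The 3 lower genes were Kif21b at 9.04 and 0.338, Tubb6 at 29.7 and 7.77 and Tuba1c at 11.9 and 5.08. The conventional kinesin Kif5b, at 65.5 and 74, and the dynein heavy chain Dync1h1, at 107 and 121, did not differ 2-fold.

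Splicing regulators shared by neurons, epithelia and endocrine cells gave 6 of 17 at least 2-fold higher (35.3%, against 19.6% of all genes) and 2 lower (11.8%, against 16.0%). The median was 0.87, and 0.16 over genes of at least 20 FPKM. Of the 6 higher genes, Esrp2, Srrm3 and Elavl4 were below 5 FPKM under the Glut2H label and entered through the other side alone. In controls 3 of the 6 were at least 2-fold higher too. The epithelial regulators Esrp1 and Esrp2 were at 11.9 and 27.8 and at 1.16 and 12.9 FPKM. Srrm3, a driver of microexon inclusion, was at 3.95 and 13.6 and Elavl4 at 2.82 and 9.77. Ptbp1, usually high in non-neuronal cells, was also on the high side at 147 and 314. Qk, at 28.9 and 6.55, and Celf2, at 21.8 and 9.22, were lower.

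Synaptic adhesion and neurotransmitter genes were few above 5 FPKM (11 of 31 and 15 of 32). Of the former 4 were at least 2-fold higher, among them Cntnap2 at 1.35 and 9.04 FPKM and the cadherin gene Celsr3 at 2.62 and 12.3, and 1 was lower, Cadm1 at 28.4 and 5.63. Of the latter 6 were higher, led by Gls2, a glutaminase, at 0.689 and 9.75, and by the GABA receptor gene Gabbr2 at 3.58 and 19.4. Maoa, at 9.89 and 4.2, was lower while its partner Maob, which also breaks down monoamines, was higher at 19.8 and 41.5. All 4 higher synaptic genes and 5 of the 6 higher transmitter genes were below 5 FPKM under the Glut2H label and entered through the other side alone. These 4 and 6 genes are 36.4% and 40% of those compared, against 19.6% of all genes. In controls 2 of the 4 and 5 of the 6 were at least 2-fold higher too. Without the filter on low values the medians were 0.32 and 0.29.

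Epithelial junction genes were among the groups with the highest medians, above ER-associated degradation on the deposited scale and below it without the filter on low values (0.90 against 1.0). Of 24 compared, 13 were at least 2-fold higher (54.2%, against 19.6% of all genes) and 1 lower (median 1.1). In the control pair 11 of the 13 were at least 2-fold higher too. Below 5 FPKM under the Glut2H label were 2 of the 13, which entered through the other side alone. The tight junction genes Cldn7 and Ocln stood at 49.7 and 139 and at 6.14 and 22.2 FPKM, the adherens junction gene Cdh1 at 21.2 and 56.8 and the desmosome gene Dsp at 20.3 and 52.3. Gjd2, the gap junction gene that couples beta cells, was at 8.18 and 20.5. The single lower gene was another connexin: Gjc1, known from blood vessel walls and heart, was at 29.9 FPKM and listed at 0 under the Glut2L label.

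Primary cilium genes, for the sensory antenna that islet cells carry, had 8 of 26 at least 2-fold higher (30.8%, against 19.6% of all genes) and 0 lower. Of the 8, 4 were below 5 FPKM under the Glut2H label and entered through the other side alone. The median of 0.43 became 0.20 with the all-gene median centred on 0 and 0.07 after equalising totals across the genes compared. The transport component genes Ift57 and Ift81 were at 3.88 and 19.4 and at 22.6 and 51 FPKM, and Rfx6, a transcription factor gene of islet development in the family that controls cilium genes, at 3.48 and 12.9. Only 4 of the 8 were also at least 2-fold higher in controls, where Ift52 stood at 30.4 and 28.7 against 15.3 and 34.9 after STZ.

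Some metabolic genes differed with intervals apart. Ckmt1, the mitochondrial creatine kinase that buffers cellular ATP (ENSMUSG00000000308, chromosome 2, 121357714 to 121363737), stood at 2.51 FPKM under the Glut2H label and 43.5 under the Glut2L label after STZ, and at 1.89 and 30.8 in controls. Ogdhl, a form of the oxoglutarate dehydrogenase of the citrate cycle, was at 8.63 and 44.9. Fbp2, a fructose bisphosphatase, was at 4.52 and 31.4. These 3 had deposited intervals that did not overlap between the STZ libraries, and all 3 were at least 2-fold higher in controls as well.

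Fatty acid oxidation and peroxisome genes had 6 of 26 at least 2-fold higher (23.1%, close to the 19.6% of all genes) and 2 lower (median 0.53 after STZ and -0.20 in controls, a difference that was not tested). Below 5 FPKM under the Glut2H label were 3 of the 6, which entered through the other side alone. Hadhb, a subunit of the mitochondrial trifunctional enzyme, stood at 35 and 74.7 FPKM and the electron carrier gene Etfb at 13.3 and 37.7, while the peroxisomal thiolase gene Acaa1a was at 49.5 and 10.6. Among ATF4 targets and amino acid genes 8 of 29 were higher (27.6%) and 4 lower (median 0.51). Entering through their high side alone were 1 of the 8 and 2 of the 4. Trib3 at 16.4 and 51.5 and Chac1 at 20.1 and 60.3, 2 stress-induced genes of this pathway, were among the higher, with Pycr1, for proline synthesis, at 7.57 and 29.9. The cystine importer gene Slc7a11, at 30.2 and 6.61, and Cth, which makes cysteine, at 11 and 2.47, were lower, Cth after STZ alone, with 1.19 and 2.07 in controls.

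Clock genes showed 4 of 16 at least 2-fold higher (25%, near the 19.6% of all genes) and 1 lower (median 0.56). Below 5 FPKM under the Glut2H label were 2 of the 4, which entered through the other side alone. Only 1 of the 4 was at least 2-fold higher in controls too. The output genes Dbp and Per1 were at 4.42 and 14 and at 15.6 and 39.6 FPKM and the repressor gene Nr1d1 at 8.98 and 22.6, while Bhlhe40 was at 54.6 and 18.4. The sources used here give no sampling times. Of 16 selenoprotein genes, 7 were higher and 2 lower (median 0.59), led by Ept1, an enzyme of phosphatidylethanolamine synthesis, at 6.36 and 105. The deiodinase gene Dio1, for thyroid hormone activation, was at 12.9 and 69.7, and in controls at 35.3 and 39.8.

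The low side held groups known from phagocytes, with actin, matrix and guidance genes. Counts in these groups, here and below, stand beside 19.6% higher and 16.0% lower among all genes. Innate pattern and Fc receptors, with which macrophages recognise microbes, antibodies and dying cells, had 22 of 23 compared genes at least 2-fold lower under the Glut2L label and 0 higher (median -3.95, against 16.0% lower among all genes). Of the 22 lower genes 17 were below 5 FPKM under the Glut2L label and entered through their high side alone. Trem2, a lipid-sensing receptor (ENSMUSG00000023992, chromosome 17, 48346401 to 48354147), stood at 47.8 FPKM and 0.282, and its signalling adaptor Tyrobp at 365 and 9.35. The scavenger receptors Cd36 and Msr1 were at 168 and 3.9 and at 47.9 and 0.498, and the fungal glucan receptor Clec7a at 128 and 3.9. Tlr2 was the member that did not differ 2-fold, at 11 and 12.9. All 22 lower genes were at least 2-fold lower in controls too. The PU.1 element GAGGAAGT, of the myeloid factor encoded by Spi1, was found on either strand in 1 of 15 promoters of this list, that of Pirb, and in 3.69% of all genes. The leukocyte marker sums given above differed in the same direction as these genes, and their part in the result was not tested.

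Lipid handling genes of phagocytes were lower for 15 of 19 (median -2.92). Below 5 FPKM under the Glut2L label were 5 of the 15, which entered through the other side alone. After Apoe, the galectin genes Lgals3 and Lgals1 stood at 651 and 37.2 and at 439 and 17.6 FPKM, Gpnmb, a glycoprotein of lipid-laden macrophages, at 119.6 and 6.73 and the lipid droplet coat gene Plin2 at 166 and 20.5. The cholesterol exporter gene Abca1 was at 24.9 and 8.2.

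Lysosomal genes differed unevenly. Over 30 genes 17 were at least 2-fold lower and 1 higher (median -1.24, which became -0.12 after equalising total FPKM across all rows, beside 1.28 for all genes). Below 5 FPKM under the Glut2L label were 3 of the 17, which entered through the other side alone. Cathepsins prominent in antigen-presenting cells had the widest gaps, with Ctss at 493 and 18.5 FPKM, Ctsc at 43.9 and 0.669 and Ctsh at 116 and 3.35. General lysosomal genes differed less: Ctsd was at 329 and 132 and Psap, the precursor of sphingolipid activators, at 618 and 281, while the membrane protein genes Lamp1 at 145 and 115 and Lamp2 at 68 and 61.4 did not differ 2-fold. Gaa, which breaks down lysosomal glycogen, ran the other way at 29 and 81.9. The CLEAR element, bound by TFEB at lysosomal genes, was found on either strand in 0 of the 22 members with a promoter and in 0.370% of all genes.

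Of 16 iron and haem genes, 12 were lower by 2-fold or more (median -1.44). Among these 12, 4 were below 5 FPKM under the Glut2L label and entered through the other side alone. Slc11a1, the metal exporter of the phagosome, stood at 146 and 2.53 FPKM, the ferritin chains Fth1 and Ftl1 at 3213 and 333 and at 3146 and 1252, and Hmox1, which splits haem, at 942 and 352. Blvrb, a biliverdin reductase, was at 99.2 and 6.33. Iron sensing and uptake genes differed less, with Ireb2 at 9.47 and 14.3 and the transferrin receptor gene Tfrc at 22.5 and 13.8.

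Eicosanoid genes had 9 of 14 lower and 1 higher (median -1.84). Of the lower genes 8, and the higher one, were below 5 FPKM in the other library and entered through their high side alone. The cyclooxygenase genes Ptgs1 and Ptgs2 were at 17.7 and 0.418 and at 21.4 and 1.43 FPKM, and Pla2g7, which inactivates platelet-activating factor, at 150.3 and 2.56. The receptor gene Ptger3, for prostaglandin E2, was the higher one, at 1.69 and 7.39.

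Matrix proteases and their inhibitors were lower for 16 of 18 (median -3.32), and all 16 were lower in controls. Of these, 13 were below 5 FPKM under the Glut2L label and entered through the other side alone. Mmp12, the macrophage elastase, stood at 387 and 13 FPKM and its inhibitor gene Timp1 at 84.5 and 4.89. Serpinh1, the collagen chaperone, was at 79.7 and 2.37. The remaining genes were under 2-fold: Serpinf1, an antiangiogenic serpin gene, at 22.4 and 11.8 and the intracellular inhibitor gene Serpinb6a at 219 and 293.

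Actin cytoskeleton genes were lower for 20 of 37 and higher for 2 (median -1.19, or -0.10 after that equalisation across all rows). Among the 20, 4 were below 5 FPKM under the Glut2L label and entered through the other side alone. Genes known from blood cells were among those with wide gaps, with Was at 18.5 and 0.431 FPKM, Fermt3 at 28.3 and 1.34 and Capg at 247 and 18.1. The monomer-binding thymosin gene Tmsb4x was at 959 and 109.6 and Actb itself at 861 and 367. Of the 3 linkers between actin and membrane, Msn stood at 102 and 5.24, Ezr, the epithelial form, at 56.5 and 162 and Rdx at 22.1 and 23.1, so they went in different directions. The CArG box, the site of serum response factor, was found in 5 of 36 promoters of this list and in 1.81% of all genes. Of the 5, Myl9 and Arpc4 were at least 2-fold lower under the Glut2L label and Actg1, Myl6 and Vcl were not. The match with the widest gap is shown with the box in capitals:
Myl9, chr2:156775273-156775342, plus strand: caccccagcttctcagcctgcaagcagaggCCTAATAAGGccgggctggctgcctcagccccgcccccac
Myl9, a regulatory light chain of smooth muscle myosin, was at 33 and 4.21 FPKM.

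Annexins and S100 proteins, which bind calcium and membranes, were mixed: 5 of 17 were lower (29.4%, against 16.0% of all genes) and 1 higher (5.88%, against 19.6%). Below 5 FPKM in the other library were 2 of the lower genes and the higher one, which entered through their high side alone. The median of -0.07 turned to 0.96 after equalising total FPKM across all rows and to 0.06 over genes of at least 20 FPKM. Anxa1, a brake on inflammation, stood at 164 and 5.82 FPKM and Anxa2 at 274 and 24, whereas Anxa5 was at 187 and 180.3 and S100g, a calcium buffer of epithelia, at 4.86 and 21.

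Axon guidance genes had 11 of 22 lower and 3 higher, with a median of -0.91 that turned to 0.07 after that equalisation across all rows and to 0.18 over genes of at least 20 FPKM. Of the calls, 10 of the 11 lower genes and all 3 higher ones were below 5 FPKM in the other library and entered through their high side alone. The lower genes included receptors of blood vessels: Nrp1 stood at 16.3 and 0.857 FPKM, Plxnd1 at 29.4 and 3.32 and Robo4 at 7.48 and 0.124. Higher were Plxna3 at 0.81 and 5.2 and Sema3e, a ligand of Plxnd1, at 1.7 and 6.54.

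Regulators of G protein and cyclic AMP signalling had 6 of 26 higher (23.1%, near the 19.6% of all genes) and 8 lower (30.8%, against 16.0%). Of these, 5 of the higher and 4 of the lower genes entered through their high side alone. The median of 0.30 turned to -0.09 after equalising totals across the genes compared. Genes of the same family lay on opposite sides. Rgs11 and Rgs9, of the neuronal class, were at 2.49 and 22.2 and at 3.51 and 17.6 FPKM, whereas Rgs1 and Rgs19, of leukocytes, were at 163 and 27.4 and at 32.9 and 3.95. The G protein subunit gene Gng4 was at 16.2 and 72.3, while the adenylyl cyclase gene Adcy7 stood at 13.2 and 1.12.

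**Figure D2:**
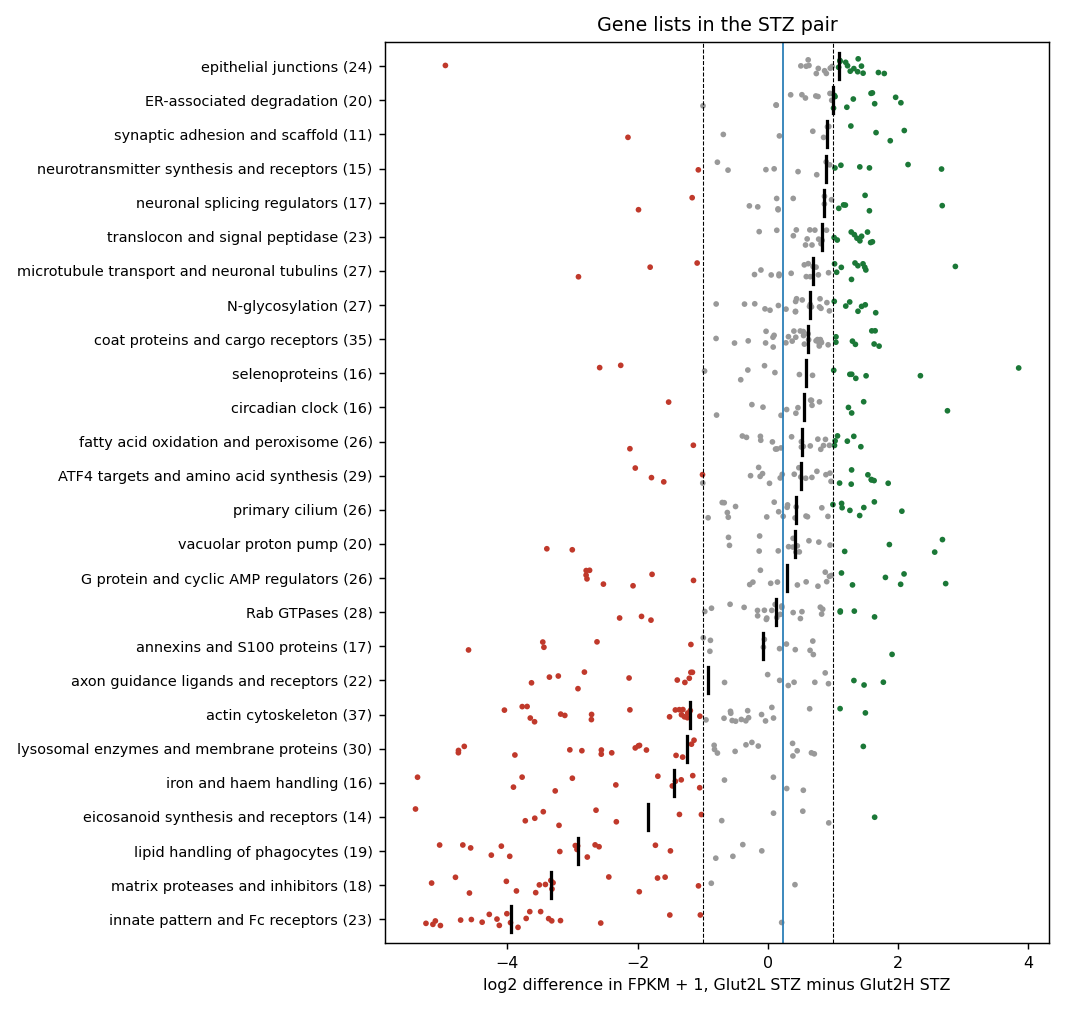
Log2 difference (Glut2L STZ minus Glut2H STZ, FPKM plus 1) of each compared gene in 26 gene lists, with 1 point per gene, black bars for list medians and the number of genes in brackets. Green points are at least 2-fold higher, red points at least 2-fold lower and grey points neither, and the blue line is the median of all genes compared, 0.23. Medians run from -3.95 for innate receptors to 1.1 for epithelial junctions.

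The widest single differences on the low side included genes known from macrophages and eosinophils. Of 148 genes at least 16-fold lower, 134 were over 4-fold lower in controls. Among protein-coding genes Ms4a4c, of a membrane protein family of leukocytes, came first at 175 and 0.105 FPKM (log2 -7.31), followed by Retnla, a secreted product of alternatively activated macrophages, at 465 and 2.59, and the colipase gene Clps at 506 and 4.75. Irf5, an interferon regulatory factor of macrophages, stood at 176 and 1.01, and Spi1, the master transcription factor gene of the myeloid lineage (ENSMUSG00000002111, chromosome 2, 91082390 to 91115756), at 85.8 and 0.93. Apart from Clps, these genes were also over 4-fold lower in controls.

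Further down the same ranking were secreted proteins. Thbs1, a matrix glycoprotein that activates TGF-beta, was at 404 and 7.24 FPKM, the platelet factor gene Pf4 at 109.9 and 1.62 and the neutrophil-attracting chemokine gene Cxcl3 at 63 and 0.60. Igfbp3, which sequesters insulin-like growth factors, stood at 44.5 and 0.0509. Ear11 at 64.7 FPKM and Abi3 at 42.1 were listed at 0 under the Glut2L label. The ribonuclease genes Ear2 and Ear11 have near-identical relatives, and Abi3 overlaps Gngt2 on the other strand, so reads may have been divided between such genes.

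The widest differences on the high side rested on lower levels. The first 12 protein-coding genes by log2 included Hist1h2an, listed at 0 and at 31.6 FPKM, Kbtbd4 at 0.349 and 32.9, Tmem151a at 0.798 and 38.2 and Fam166a at 0.697 and 35.2. Of these 12 genes 8 overlap another annotated gene, such as Ptpmt1 at Kbtbd4 and Tubb4b at Fam166a, against 4 of the 12 lowest. In controls 6 of the 12 highest were at least 2-fold higher, while 11 of the 12 lowest were at least 2-fold lower. Stx16, a syntaxin of the trans-Golgi network (ENSMUSG00000027522, chromosome 2, 174076308 to 174099771), was the most abundant of the 12 at 9.59 and 154, and at 31.2 and 103 in controls.

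A stricter ranking asked for 20 FPKM in the higher library and deposited intervals that did not overlap. It left 9 protein-coding genes above and 254 below. Among the 9 were Ckmt1, Bex1, Cep89, Fbp2, Ogdhl, Kcnj11, Tspan7 and Slc30a8. Kcnj11, the pore of the ATP-sensitive potassium channel, stood at 5.59 and 29.2 FPKM, Tspan7, a tetraspanin of endocrine and neural cells, at 21.1 and 94.3, and Slc30a8, the zinc carrier of insulin granules, at 11.9 and 52.8. In controls 8 of the 9 were at least 2-fold higher too. Cep89, a centriole component, was the exception, at 4.76 and 52.3 after STZ and 16.5 and 9.18 in controls. Over all 9292 genes, 47 (0.506%) passed 2-fold on the high side and 499 (5.37%) on the low side with intervals apart.

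**Figure D3:**
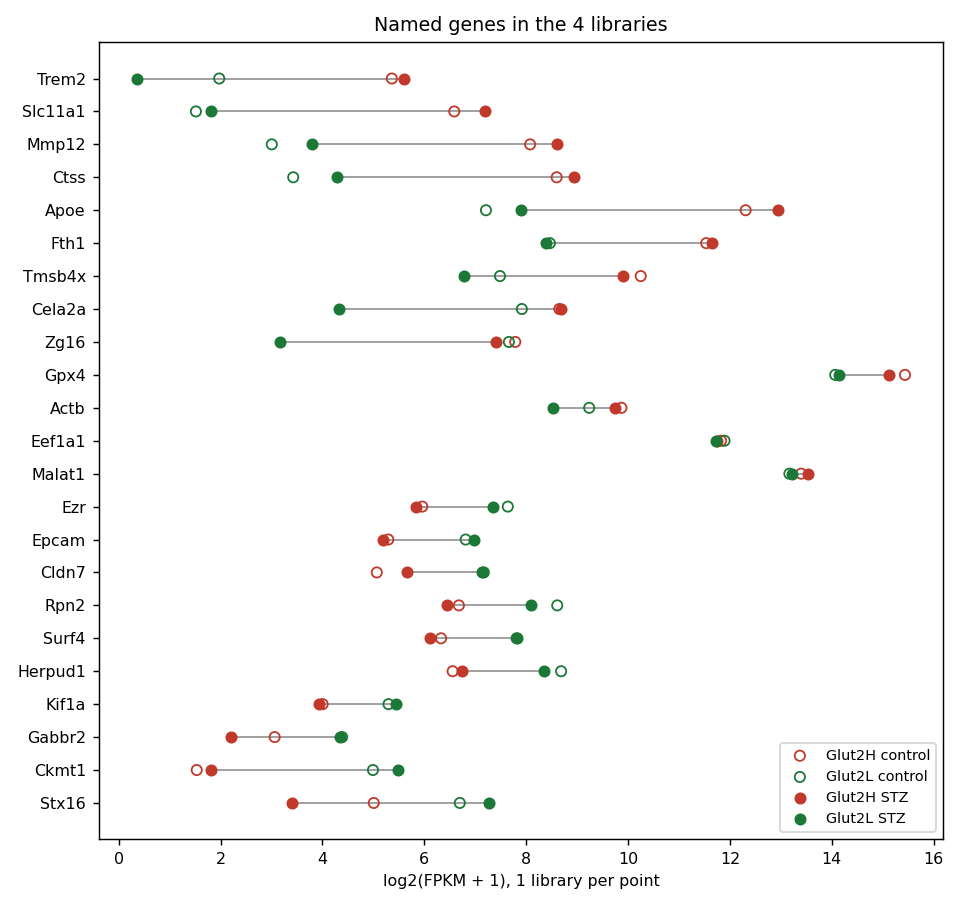
Level of 23 named genes as log2 of FPKM plus 1 in the 4 libraries, with 1 point per library, filled for STZ and open for control mice, red for Glut2H and green for Glut2L, and a grey line joining the STZ pair. In the upper rows, macrophage, actin and acinar genes, the red points lie to the right. In the lower rows, from Ezr down, the green points do, and the open green points of Cela2a and Zg16 lie near the Glut2H points.

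The control pair shares no library with the STZ pair and gives the same measure in other cells. Over the 9291 genes with an estimate there, 1620 were at least 2-fold higher (17.4%) and 1359 lower (14.6%) under the Glut2L label. Of the genes lower after STZ, 981 were lower in controls (65.8% of the STZ set and 72.2% of the control set), with a median control log2 of -1.72. Of the genes higher after STZ, 796 were higher in controls (43.8% of the STZ set and 49.1% of the control set), with a median of 0.89. Opposite 2-fold differences were rare, at 65 of the lower genes (4.36%) and 58 of the higher (3.19%).

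Acinar genes, which encode digestive enzymes, parted between the pairs. All 14 compared were at least 2-fold lower under the Glut2L label after STZ (median -3.77) and none in controls (median -0.43), a difference that was not tested. The elastase gene Cela2a stood at 408 and 18.9 FPKM after STZ and 401 and 241 in controls, and the lipase gene Cel at 166 and 7.03 and 146 and 147. For both genes the STZ library labelled Glut2L was the lowest of the 4.

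**Figure D4:**
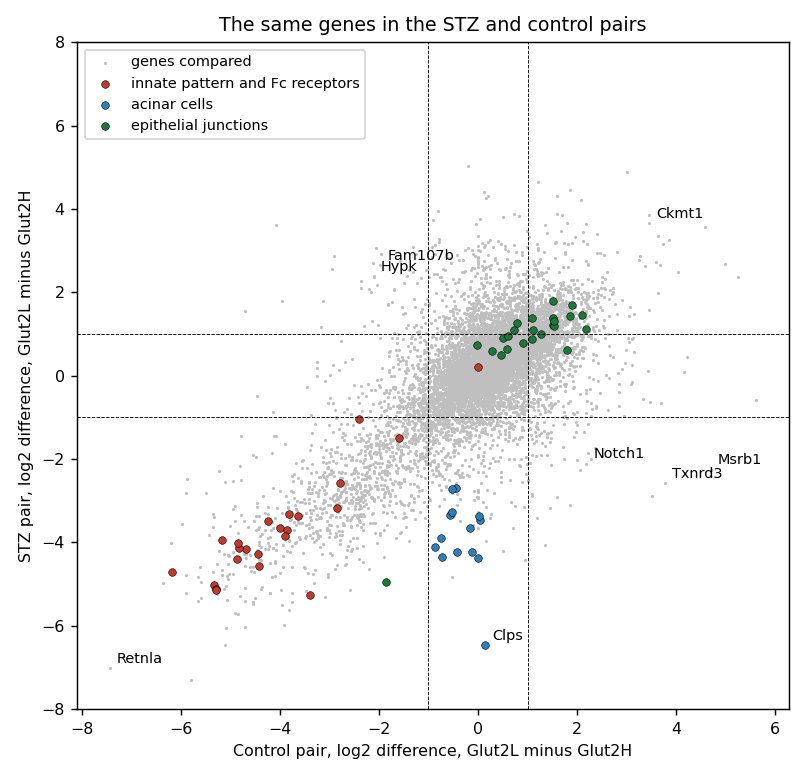
Log2 difference (Glut2L minus Glut2H, FPKM plus 1) of the genes compared in the control pair (x axis) and the STZ pair (y axis), with 1 point per gene and dashed lines at 2-fold. Innate receptor genes lie low in both pairs, epithelial junction genes mostly high in both, and acinar genes low after STZ alone, with Clps at 0.15 and -6.46.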

How the data were processed

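RNA from sorted islet cells was sequenced as 1 library for each of 4 groups, after stranded library preparation per the labels' protocols. The FPKM values are those the authors deposited, per the file headers, with an estimate status and an interval (unit other) for each gene. TopHat2, SAMtools and Cuffdiff on GRCm38/mm10 are named in the submitters' processing notes. Their versions, the annotation, the normalization between libraries, the level of the intervals and any use of strand in counting do not appear in the sources used here, so overlapping genes are uncertain. The interval's median half-width was 84.9% of FPKM in Glut2H STZ and 80.3% in Glut2L STZ, and intervals were called apart only where each FPKM lay inside its own.

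From these values log2 differences of FPKM plus 1 were computed in Python 3.11.15 with pandas 2.3.3, numpy 2.4.6 and matplotlib 3.10.9, after checks on simulated data. The fold understates differences of low genes. Starting from 39170 genes, 38734 had the status OK, 10705 of these reached 5 FPKM, 10558 spanned 300 bp and 9292 were left once 1266 predicted genes and small RNAs were removed. GENCODE M21 gave biotypes, positions and overlaps, and RefSeq (GRCm38.p6) the promoters. There are 26 gene group lists and 10 marker lists with 872 symbols, of which 863 were found and 4 had more than one row (the protein-coding row was taken). Members and lists were chosen with earlier results of these data known. Red blood cell markers had no gene compared (0 of 6), and the alpha, delta and PP, duct, and Schwann and neural lists gave 2 higher and 1 lower of 6, 2 and 0 of 5, 3 and 2 of 5, and 1 and 1 of 3.

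Named were Slc2a2, Ins1 and Ins2, the 12 highest and 12 lowest protein-coding genes, up to 20 a side with 20 FPKM and intervals apart, list members at least 2-fold apart or at a list's extremes, the 10 most abundant genes, 6 genes a side opposite to the control pair and the 2 nearest the minimum on each side. List members under 2-fold were named as contrasts after their values were seen. Some genes that the rule names are not reported here. Alternatives were other pseudocounts (0.1 and 5), filters, scalings, folds and the separate sample tables.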

Additional observations from a re-analysis of the deposited data

Results flagged for a closer look

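Genes of at least 20 FPKM in both pairs were listed where the library labelled Glut2L was at least 2-fold higher in one pair and at least 2-fold lower in the other. Among 3611 such genes, 9 were higher after STZ and lower in controls, and 22 the reverse. With 1 library a group the difference between the pairs was not tested. Among the widest of the first kind were Fam107b (2.65 after STZ and -1.98 in controls), Ints2 (2.53 and -1.40), Hypk (2.39 and -2.10), Bcam (2.17 and -2.03) and Gga3 (1.41 and -1.11), and all of these overlap another annotated gene. Of the second kind were the selenoprotein genes Txnrd3 (-2.58 and 3.78) and Msrb1 (-2.26 and 4.70), Mms19 (-2.15 and 1.48), the receptor gene Notch1 (-2.11 and 2.19), the mitochondrial ribosomal gene Mrps17 (-2.03 and 2.0) and Pkib (-1.92 and 1.18), of which 2 overlap another gene. Msrb1 was at 1369 and 285 FPKM after STZ and at 1132 and 29498 in controls, and how well such rows were quantified is not known. The median of 5 duct cell markers, which is the value of Krt19, was 1.13 after STZ and -0.16 in controls, which was likewise not tested. After STZ the markers split, with 3 at least 2-fold higher and 2 lower, Spp1 (-2.10) and Car2 (-3.42). The 9 duct markers found summed to 219 FPKM under the Glut2H label and 137 under the Glut2L label after STZ.

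Rows outside the comparison, among them small RNAs and predicted genes, carried much of the signal. They held 86.8% of the summed FPKM in the library labelled Glut2H STZ and 84.3% in Glut2H control, and 61.5% in Glut2L STZ and 51.3% in Glut2L control. One such row, the predicted gene Gm20594, stood at 2348010 FPKM in Glut2H STZ and 64783 in Glut2L STZ. In Glut2H control it was at 1789790 and in Glut2L control at 63850.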

How the results depend on the processing

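The 1819 genes higher in the library labelled Glut2L became 1055 with a pseudocount of 5 FPKM, 905 with a minimum of 20 FPKM, 994 and 5755 with FPKM rescaled to an equal sum over the genes compared and over all rows, 321 at 4-fold and 47 with intervals apart as well. The 1491 lower genes became 711 with a minimum of 20 FPKM, 850 with an equal sum over all rows, 836 at 4-fold and 499 with intervals apart. Stricter filters and folds leave fewer genes by construction. The median log2 of 0.23 became 0 without a filter, 0 when centred, by construction, and -0.14 and 1.28 with equal sums over the genes compared and over all rows. The sum over all rows includes the predicted gene Gm20594, at 2348010 FPKM in Glut2H STZ and 64783 in Glut2L STZ. Its part in the shifts under that scaling was not tested, nor was the cause of the other scaling shifts. One named gene changed sign after being called, Wasf2, from -1.04 to 0.015 with an equal sum over all rows. Of 4034 values of named genes under alternatives 3762 kept their side of the 2-fold threshold and 271 crossed it without changing sign while called. Of 348 list medians 44 moved by more than the median deviation of the list's genes. The separate sample tables gave the same values. No paired analysis was possible because each group is 1 library. The number of reads is unknown, so the precision of low values cannot be given.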

Other observations

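Genes that share a symbol stem were counted as families after their values were seen. Many families were ranked by their median log2 after STZ, and those named here were picked from the extremes of that ranking. Among all genes compared 19.6% were at least 2-fold higher and 16.0% lower. Of 15 Dusp genes, dual-specificity phosphatases of which several switch off MAP kinases, 7 were at least 2-fold higher under the Glut2L label after STZ and 2 lower, with a median log2 of 0.94 after STZ and -0.05 in controls. Of 35 histone genes, 16 were higher and 5 lower (median 0.88 after STZ and 0.10 in controls). Histone genes have near-identical copies and several are short, so their single values are uncertain. Of 13 Tspan genes, which encode tetraspanins of the cell surface, 6 were higher and 2 lower, and of 22 Zbtb genes, for zinc finger factors, 9 were higher and 3 lower. Collagen genes lay on the other side, with 15 of 19 lower and 3 higher. None of these differences between the pairs was tested.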
